A study of Mus musculus with 12 samples.

Results

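Small nucleolar RNAs (snoRNAs) and small Cajal body RNAs (scaRNAs) were followed in total RNA libraries from mouse bone marrow-derived macrophages (BMDMs). The genes were chosen by annotation and by depth alone. A gene entered when GENCODE mouse release M21 gave it the biotype snoRNA or scaRNA and its raw counts summed to 60 or more over the 12 libraries. This rule kept 143 genes of the 1558 snoRNA and scaRNA genes in the table of 48526 genes, and 324 of the 1558 had at least 1 count. At the edge of the rule, Snord7 with a summed count of 60 was kept, and Gm25632 and Gm22952, with 59 each, were left out. Since the rule used the summed counts, the levels below are a description. Of the 143 genes, 111 had at least 15 counts in each of the 4 groups, 124 had a count in every library, and the median summed count was 172.

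The mice were homozygous HSS9 knockouts (KO), which lack an enhancer upstream of Tnf, or wild type (WT). Bone marrow cells grew for 6 d with L929-conditioned medium and were left untreated (UT, PBS in the labels) or given lipopolysaccharide (LPS) over 6 hr. This makes 4 groups of 3 libraries, namely WT UT and KO UT, and WT LPS with KO LPS. The labels name littermates as the WT controls. According to the methods, however, the KO line was bred as homozygous pairs and C57BL/6 mice were purchased, so genotype and breeding cannot be told apart. The labels give each library a batch number equal to its replicate number but name no animal, and p-values measure the spread between these libraries. Library totals ranged from 26154533 to 36423921 counts. Tnf, the readout of the deletion, was at 887 ± 58 CPM (counts scaled to a common library size; SD, n = 3) in WT LPS and 431 ± 15.5 CPM (SD, n = 3) in KO LPS. The summed marker lists that follow are CPM by library total, without the TMM scaling factors used for Tnf. The 8 macrophage markers had counts in all 12 libraries, whereas the summed B cell, T cell and stromal lists stayed at or below 6.81 CPM in each library. With LPS the summed macrophage list went from between 37403 and 39717 CPM to between 22664 and 26221 CPM. The TMM factors ran from 1.1517 to 1.2912 in UT libraries and from 0.8144 to 0.8237 in LPS libraries. These unscaled sums therefore cannot show whether macrophage marker RNA fell with LPS. The T cell list went from between 0.151 and 0.4 to between 5.16 and 6.81 CPM with LPS. Between WT LPS and KO LPS the macrophage list (22664 to 24014 against 24582 to 26221 CPM) and the stromal list (1.45 to 2.56 against 4.35 to 5.39 CPM) did not overlap. The summed neutrophil list ranged from 26.3 to 28.5 CPM in WT UT, 50.3 to 56 in KO UT, 41.2 to 64.5 in WT LPS and 54.9 to 62.2 in KO LPS, and the part of these lists in the results below was not tested. The erythroid genes Hba-a1 and Hbb-bs were at 0 throughout. Both are globin genes and the methods name a globin version of the library kit, so these counts cannot show whether erythroid cells were present.

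SnoRNAs are guide RNAs that pair with a target RNA and bring a modifying enzyme to it. Box C/D RNAs direct ribose methylation with fibrillarin, and box H/ACA RNAs direct pseudouridylation with dyskerin. A few, among them Snora73b and Snord118, are needed to cut precursor ribosomal RNA, and scaRNAs guide the modification of spliceosomal snRNAs in Cajal bodies. Most mammalian snoRNAs lie in introns of a host gene and are trimmed from the excised intron.

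The names or biotypes gave a class to 55 of the 143 genes, namely 24 box C/D, 17 box H/ACA and 14 Cajal body RNAs, and the other 88 were unclassed, mostly with Gm names. The annotated lengths ran from 65 to 414 bases with a median of 130. Letters of the boxes were searched on the transcript strand, as TGATGA in the first 20 bases together with CTGA in the last 20 (C and D), and as ACA ending 2 to 4 bases before the 3′ end. The C and D letters alone were present in 29 genes, ACA alone in 72, both in 6 and neither in 36. All 17 named H/ACA genes held ACA, 66.7% of the 24 named C/D genes held C and D (3 of them with ACA too) and 8 held neither, and 49 unclassed genes held ACA alone. In snRNA and miRNA genes of 60 to 350 bases, 0.0288% held C and D and 6.51% held ACA.

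Sequences are given because the results turn on these genes, which are among the most counted of their class or lead a comparison. They are spliced transcripts of GENCODE M21 (GRCm38) written 5′ to 3′ with T for U, and capitals mark the C and D boxes or the ACA. The copies Snora73b and Gm26448 differed by 25 edits, an identity of 87.8%.
Scarna6 (chr1:87784556-87784820, plus strand, intron of Atg16l1): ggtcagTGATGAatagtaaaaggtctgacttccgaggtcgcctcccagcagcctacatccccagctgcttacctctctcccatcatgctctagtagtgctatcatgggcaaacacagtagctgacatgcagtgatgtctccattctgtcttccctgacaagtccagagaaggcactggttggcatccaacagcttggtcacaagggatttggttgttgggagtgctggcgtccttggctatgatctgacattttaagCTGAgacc
Gm22442 (chr11:69350518-69350661, minus strand, intron of Chd3): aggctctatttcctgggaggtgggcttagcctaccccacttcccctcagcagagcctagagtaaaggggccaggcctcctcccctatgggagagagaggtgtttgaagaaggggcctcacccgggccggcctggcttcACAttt
Snord17 (chr2:144265979-144266216, minus strand, intron of Snx5): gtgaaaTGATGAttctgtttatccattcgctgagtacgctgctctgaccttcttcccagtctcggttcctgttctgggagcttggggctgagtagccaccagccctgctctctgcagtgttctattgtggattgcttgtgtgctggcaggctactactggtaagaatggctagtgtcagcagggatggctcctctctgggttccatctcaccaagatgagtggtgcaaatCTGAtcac
Snord89 (chr1:39548745-39548854, minus strand, intron of Gm15832): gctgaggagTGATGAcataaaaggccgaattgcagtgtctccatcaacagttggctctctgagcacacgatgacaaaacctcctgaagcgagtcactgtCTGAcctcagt
Snord104 (chr11:106500993-106501062, plus strand, no host gene): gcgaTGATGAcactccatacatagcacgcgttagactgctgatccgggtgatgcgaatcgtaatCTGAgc
Snora73b (chr4:132352322-132352526, minus strand, intron of Snhg3): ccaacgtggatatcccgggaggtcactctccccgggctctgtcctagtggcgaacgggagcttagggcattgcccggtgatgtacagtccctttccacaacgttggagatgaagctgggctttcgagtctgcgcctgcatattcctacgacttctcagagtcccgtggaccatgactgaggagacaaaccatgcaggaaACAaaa
Gm26448 (chr9:120129351-120129553, plus strand, intron of Rpsa): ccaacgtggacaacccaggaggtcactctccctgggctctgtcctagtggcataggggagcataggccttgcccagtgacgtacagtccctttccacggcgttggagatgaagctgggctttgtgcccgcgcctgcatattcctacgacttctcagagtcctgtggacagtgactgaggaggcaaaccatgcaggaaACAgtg
Gm23722 (chr1:39573746-39573875, minus strand, intron of Rnf149): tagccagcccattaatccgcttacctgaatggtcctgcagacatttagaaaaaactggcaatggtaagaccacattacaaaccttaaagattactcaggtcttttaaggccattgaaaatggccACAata

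The counts on these genes were held by a few RNAs of the Cajal body class. Gm22009, a scaRNA in an intron of Kpna4, held 34.2% of the 302942 counts, and the 5 most-counted genes held 69.8%. Cajal body RNAs together held 73.6%, box C/D RNAs 4.54%, H/ACA RNAs 4.43% and unclassed RNAs 17.4%. Per kilobase of annotated length and averaged over the 12 libraries, Gm22009 was at 837 CPM per kb, Gm22442 at 555, Scarna2 at 291 and Scarna13 at 193. The most-counted H/ACA RNA by CPM, Snora73b, was at 120 CPM per kb, and Snora28 (20.1), Snora17 (10.1) and Snora78 (8.52) followed. Among C/D RNAs by CPM, Snord17 was at 64 CPM per kb, Snord104 at 84.8, Snord89 at 41.7 and Snord71 at 14.4.

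RNAs known to act in the cutting of precursor ribosomal RNA were mostly uncounted. Of 19 genes on that list in the table, 13 were at 0, 4 were counted below the cut, and Snora73b (8886 counts) and Snord118 (110 counts) were kept. Snord118 was at 0.126 ± 0.0465 CPM in WT UT and 0.351 ± 0.221 CPM in KO UT (SD, n = 3), and it passed the test in none of the comparisons. Every gene of the Gas5 cluster (4 genes), the Snhg1 cluster (1 gene) and the imprinted clusters (19 genes) that the table lists was at 0, and the Rpl13a cluster reached at most 50 counts. A count of 0 in a library allows up to 3 counts, or 0.0824 to 0.115 CPM by library total, for counting error only. Near-identical copies and overlapping exons can lose reads in counting, and the treatment of such reads is not given in the sources used here. Of the 143 genes, 12 had a counted copy with an identity of at least 95%, and 23 overlapped an exon of another gene. Values for Snora73b (1 such copy, and an exon on the other strand) and for Scarna13 and Snora28 (an exon on the same strand) are therefore uncertain. Of the 143 genes, 134 lay within a host gene on the same strand. Reads from an unspliced host intron and reads from the mature RNA cannot be told apart here, so host values are given beside the results.

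The share of each library on all 143 genes gave the first view of the groups. It was 0.0641% ± 0.00206 in WT UT, 0.0902% ± 0.0034 in KO UT, 0.101% ± 0.0207 in WT LPS and 0.0675% ± 0.00528 in KO LPS (SD, n = 3). The 3 KO UT libraries (0.0877 to 0.0941%) were above the 3 WT UT libraries (0.0624 to 0.0664%), and the WT LPS libraries (0.0798 to 0.121%) were above the KO LPS libraries (0.0615 to 0.0714%). Wilson 95% intervals, which cover counting error only, ran from 0.0788 to 0.0808% for WT LPS replicate 1 and from 0.12 to 0.123% for WT LPS replicate 3, so these replicates differed beyond counting error. The other short structured RNAs, which share no gene with the 143, were likewise higher in KO UT than in WT UT and higher in WT LPS than in KO LPS. Rn7sk, the RNA that holds the elongation factor P-TEFb inactive, took 1.89% ± 0.0841 of counts in WT UT, 3.91% ± 0.357 in KO UT, 3.09% ± 0.82 in WT LPS and 1.97% ± 0.0274 in KO LPS (SD, n = 3). Within WT LPS it took 2.29%, 3.05% and 3.93% in replicates 1 to 3. Rmrp, the RNA of ribonuclease MRP, was at 0.283%, 0.709%, 0.619% and 0.311% of counts in the same order of groups. Rpph1, the RNA of ribonuclease P, was at 0.838%, 2.62%, 1.57% and 0.948%. These values moved with each genotype comparison below, and a fit with each library's share of short structured RNAs as a covariate, added after the data were seen, is given beside the counts it changed.

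**Figure D1:**
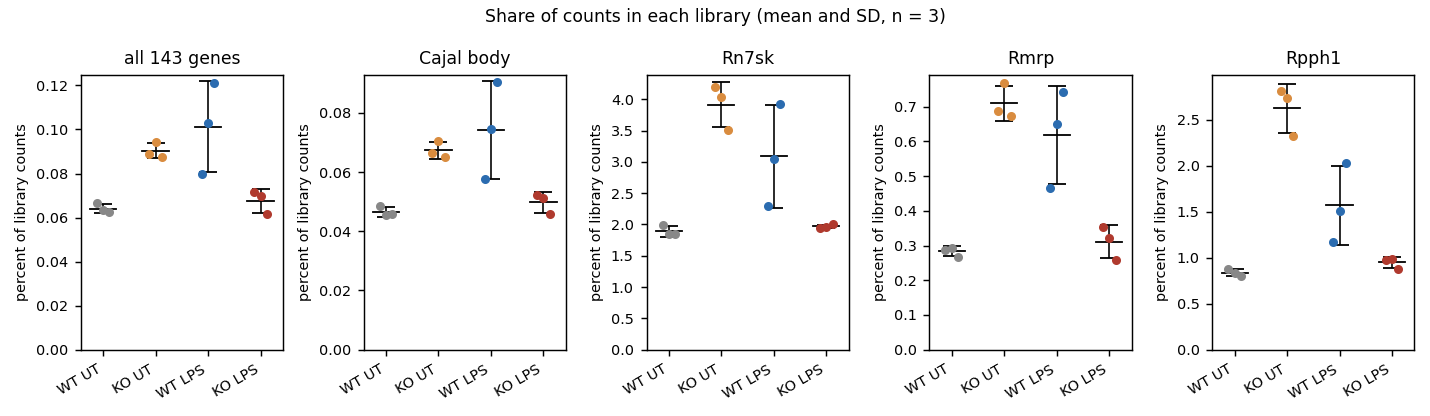
Percent of library counts (y axis) on all 143 snoRNA and scaRNA genes, on the 14 Cajal body RNAs and on Rn7sk, Rmrp and Rpph1 in the 4 groups (x axis), with points for libraries and bars for mean and SD (n = 3). In each panel KO UT lies above WT UT and WT LPS above KO LPS, as for all 143 genes at 0.0902% against 0.0641% and 0.101% against 0.0675%.

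LPS raised many of these RNAs in WT cells. A gene was called when the adjusted p from the edgeR quasi-likelihood test was below 0.05 and the absolute log2 fold change above 1. Between WT LPS and WT UT, 55 of the 143 genes were called higher and 2 lower, which is 39.9% against 37% of all 15975 genes tested (18.7% higher, 18.3% lower). The median log2 fold change was 0.99 over the 143 genes and 0.04 over all genes. By class, the calls were 11 of 14 Cajal body RNAs (median log2 fold change 1.33), 6 of 24 C/D RNAs (0.81), 5 of 17 H/ACA RNAs (0.81), each of them higher, and 35 of 88 unclassed RNAs (0.98), of which 33 were higher. The H/ACA median was 0.39 among RNAs that overlap no exon of another gene and 0.31 with the covariate for short structured RNAs. Between KO LPS and KO UT, 19 genes were called higher and 4 lower, or 16.1% against 36.2% of all genes (17.2% higher, 19% lower), with a median of 0.31. That median was 0.14 with upper-quartile scaling, 0.04 with a floor of mean CPM 1 and 0.81 with the covariate for short structured RNAs. In this comparison 1 of the 14 Cajal body RNAs was called, Gm26347 at a log2 fold change of 1.42. With the covariate for short structured RNAs, 19 genes were called higher and 2 lower in WT, where 3 Cajal body RNAs (Gm25395, Scarna6 and Gm22728) were called. The WT medians in that fit were 0.66 over the 143 genes, 0.89 in Cajal body RNAs, 0.72 in C/D RNAs and 0.61 in unclassed RNAs. In KO it called 17 genes higher and 1 lower, where 3 Cajal body RNAs (Gm22009, Scarna2 and Scarna13) were called higher and Gm26347 was not. Over all genes that fit called 32.3% in WT and 27.5% in KO. Without the covariate, 11 genes were called higher and 2 lower in both genotypes, or 7.69% and 1.4%, against 14.8% and 15.2% of all genes.

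Of the 11 RNAs called higher with LPS in both genotypes, 6 had a host that was called higher in both and 5 did not. Gm23722, an ACA RNA in an intron of Rnf149 (a ubiquitin ligase), was at 1.97, 2.65 and 2.98 CPM in WT UT and at 15.8, 15.8 and 14.3 CPM in WT LPS. In KO cells it was at 1.94, 2.38 and 2.97 CPM without LPS and at 13.3, 13.3 and 12.9 CPM with LPS. The UT and LPS libraries did not overlap in either genotype. Its log2 fold change was 2.59 (SE 0.142, edgeR adjusted p 2.5e-13) in WT and 2.43 (SE 0.146, edgeR adjusted p 1.44e-12) in KO, and the host changed by 2.41 and 2.33. Gm23127, which overlaps an exon of the elongation factor gene Ell2, rose in WT from 0.261 ± 0.0917 to 3.36 ± 0.411 CPM (a log2 fold change of 3.67 with SE 0.28 and an edgeR adjusted p of 8.82e-11) and from 0.386 ± 0.0862 to 3.22 ± 0.267 CPM in KO (3.04, SE 0.272, edgeR adjusted p 1.37e-09; SD, n = 3). Ell2 itself changed by 2.43 and 2.71. Gm24727, in an intron of the glutathione reductase gene Gsr, rose by a log2 fold change of 2.64 in WT and 1.78 in KO (1.56 and not called with the covariate), and Gsr by 2.58 and 2.64. Gm25410, in an intron of Sash1, rose by 3.31 and 2.05, and Sash1 by 1.34 and 1.57. The C/D RNA Snord89 was at 1.9, 2.21 and 1.64 CPM in WT UT and 8.72, 7.76 and 8.55 CPM in WT LPS, a log2 fold change of 2.12 (SE 0.184, edgeR adjusted p 7.99e-10). It rose by 1.64 in KO, and its annotated host Gm15832 by 2.26 and 2.20. Gm22748, in an intron of the ornithine decarboxylase gene Odc1, fell by 1.22 in WT and by 1.81 in KO on the log2 scale, and Odc1 fell by 0.28 and 0.56. Without WT LPS replicate 3, Gm22748 was no longer called in WT, and with the covariate for short structured RNAs its change there was -0.22 (edgeR adjusted p 0.81).

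Other RNAs moved apart from their hosts. Snord17, a C/D RNA in Snx5, had a log2 fold change of 0.45 in WT and -0.63 in KO, both short of the call, while Snx5 fell by 1.68 and 1.67. With the covariate for short structured RNAs the KO value of Snord17 turned to 1.01 (edgeR adjusted p 0.00279) and was called. Gm22442 rose by 1.17 in WT while its host Chd3, a chromatin remodeller, fell by 1.09. With the covariate the rise of Gm22442 was 0.57, below the fold limit. Gm25117 rose by 1.5 in WT while its host Nap1l1, a histone chaperone, fell by 1.63. Over 132 pairs of an RNA and a tested host (102 hosts), Spearman's rho of their log2 fold changes was 0.402 in WT and 0.442 in KO. These are descriptions across genes, and several pairs share a host and all share libraries. For the genotype differences rho was -0.0448 without LPS and 0.147 with LPS, and no host of the 132 pairs was called in either by edgeR or DESeq2. At an unadjusted p below 0.05, edgeR gave 33 of the 102 hosts as higher in KO and 27 as lower without LPS, and 22 and 15 with LPS. These are 58.8% and 36.3% of the hosts, against 33.5% and 28% of all genes. The hosts were not matched to all genes by depth, so these shares cannot show whether hosts stand apart.

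**Figure D2:**
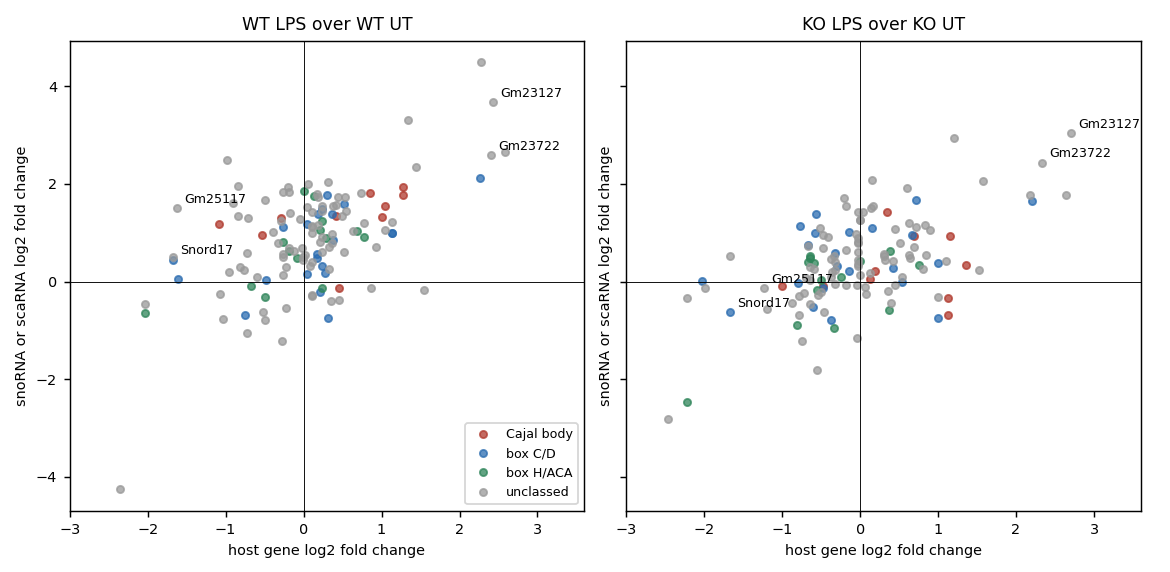
Log2 fold change of each snoRNA or scaRNA (y axis) against that of its host gene (x axis) for LPS over UT in WT (left) and KO (right), with 132 pairs as points coloured by class. Gm23127 and Gm23722 lie at the upper right in both panels, and Gm25117 in WT lies above 0 with a host below 0.

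Without LPS, several of these RNAs were higher in KO than in WT cells. Between KO UT and WT UT, 7 of the 143 genes were called higher and 2 lower, or 6.29% against 1.8% of all genes (0.995% higher, 0.808% lower). The higher ones were the Cajal body RNAs Scarna6 and Gm25395, the H/ACA RNAs Snora73b and Snora78, and the unclassed Gm26448, Gm24336 and Gm22581. The lower ones, Gm22362 (log2 fold change -2.98) and Gm25636 (-2.51), are named for completeness after their values were seen. Both lower calls were lost with DESeq2, with a floor of mean CPM 1 and without KO UT replicate 3, and that of Gm24336 with RLE scaling and DESeq2. The median log2 fold change was 0.28 over the 143 genes, 0.57 in Cajal body RNAs, 0.40 in H/ACA RNAs and 0.11 in C/D RNAs, against 0.00 over all genes. Without regard to size, 14 genes had an adjusted p below 0.05 and were higher, and 2 were lower, or 11.2% against 23.1% of all genes. With the covariate for short structured RNAs, no gene was called higher and 3 were called lower, against 0.82% of all genes called, and the medians turned to -0.27 over the 143 genes and -0.07 in Cajal body RNAs. The call of Gm22581 was lost with the batch number as a block, with RLE or upper-quartile scaling and with DESeq2. That of Snora78 was lost without WT UT replicate 2 or without KO UT replicate 2. With the covariate the value of Snora78 was -0.53 (edgeR adjusted p 0.852).

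With LPS the genotype difference had the other sign. Between KO LPS and WT LPS, 7 genes were called lower and none higher, or 4.9% against 1.25% of all genes (0.588% higher, 0.657% lower). They were Snora73b, Scarna6, Scarna9, Gm26448, Gm25117, Gm25788 and Snord55. The median log2 fold change was -0.37 over the 143 genes, -0.63 in Cajal body RNAs, -0.29 in H/ACA RNAs and -0.26 in C/D RNAs, against -0.01 over all genes. All 14 Cajal body RNAs had a value below 0, of which 6 had an adjusted p below 0.05. Over the 143 genes that share was 10.5%, against 13.9% of all genes. Within batches 1 to 3 the Cajal body median was -0.26, -0.68 and -0.95. The count of calls rested on single libraries. It was 4 without WT LPS replicate 2 and 2 without KO LPS replicate 3, and with the covariate for short structured RNAs Snora73b was the 1 gene called, against 0.657% of all genes, and the median over the 143 genes was -0.13. The call of Gm25788 was lost with the batch number as a block and with DESeq2. The calls of Gm25788 and Snord55 were both lost with the compared groups alone and with a floor of mean CPM 1. At an unadjusted p below 0.05 in edgeR, 31 genes were lower and 0 higher, or 21.7% against 28% of all genes. DESeq2 called 7 lower and 0 higher, or 4.9% against 1.36%, and 6 of these were edgeR calls.

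**Figure D3:**
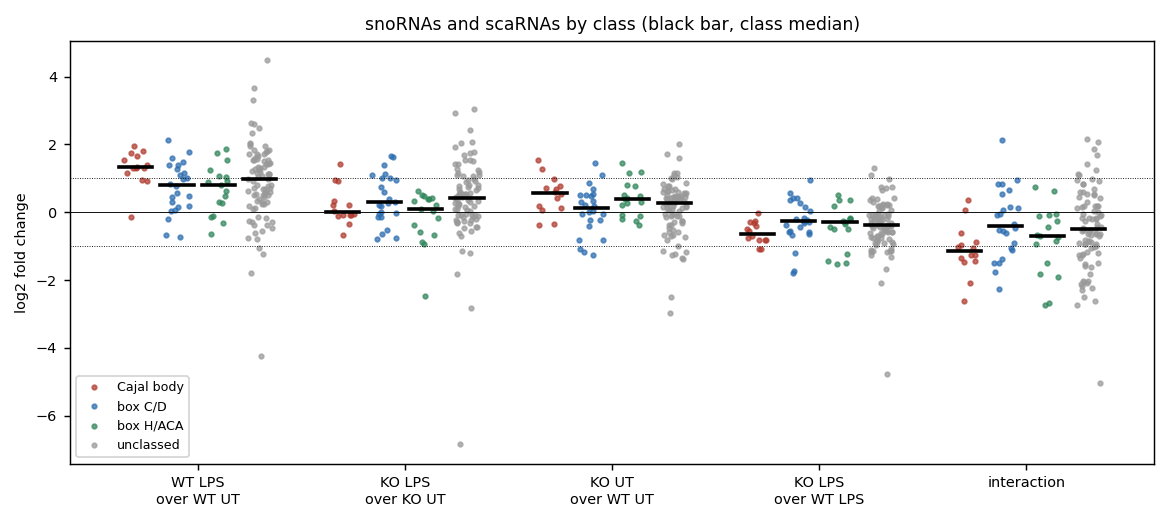
Log2 fold change (y axis) of the 143 genes in the 5 comparisons (x axis), coloured by class, with a black bar at each class median and dotted lines at 1 and -1. Cajal body RNAs have a median of 1.33 for LPS in WT, 0.57 for KO over WT without LPS, -0.63 with LPS and -1.15 for the interaction.

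The difference between these 2 genotype effects was tested as the interaction, the LPS effect in KO minus that in WT. It was called for 22 genes, each lower, or 15.4% against 2.12% of all genes (0.526% higher, 1.59% lower). Without regard to size, 17.5% of the 143 genes had an adjusted p below 0.05, against 16.4% of all genes. In each of the 22, the estimate was above 0 for KO UT against WT UT and below 0 for KO LPS against WT LPS. The interaction is the second of these estimates minus the first, so a call below 0 favours this pair of signs. The calls comprised 7 of 14 Cajal body RNAs, 2 of 24 C/D RNAs, 3 of 17 H/ACA RNAs and 10 of 88 unclassed RNAs, with class medians of -1.15, -0.42, -0.70 and -0.51, which were -0.33, -0.12, -0.32 and 0.52 with the covariate for short structured RNAs. Of the 28 genes with a summed count of 500 or more, 15 were called, and the 28 estimates ran from -2.69 to -0.04. Among the 8 of these longer than 200 bases, 7 were called (median -1.79), among the 15 of over 100 and up to 200 bases, 6 were called (median -0.63), and among the 5 of at most 100 bases, 2 were called (median -0.92). The count fell to 10 without WT LPS replicate 3, and to 14 without KO UT replicate 1 or without KO LPS replicate 3. With the covariate for short structured RNAs, 2 genes, Scarna13 and Snord17, were called and both were higher, against 0.62% of all genes, and the median over the 143 genes turned from -0.58 to 0.21. That share itself differed between the groups, at 3.04% ± 0.131 in WT UT, 7.29% ± 0.657 in KO UT, 5.32% ± 1.4 in WT LPS and 3.25% ± 0.0785 in KO LPS (SD, n = 3). How much of the interaction it accounts for was not tested beyond that fit.

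Scarna6 had the lowest p of the interaction among the named genes. Scarna6 was at 9.29, 9.27 and 9.65 CPM in WT UT and at 25.6, 27.4 and 28.2 CPM in KO UT. With LPS it was at 27.3, 38.2 and 43.6 CPM in WT and at 20.4, 18.2 and 12.2 CPM in KO. KO was thus above WT in every library without LPS and below it in every library with LPS. The log2 fold change of KO over WT was 1.53 (SE 0.147, edgeR adjusted p 1.97e-07) in UT and -1.10 (SE 0.147, edgeR adjusted p 3.3e-05) with LPS, an interaction of -2.62 (SE 0.208, edgeR adjusted p 4.73e-08). Within batches the interaction was -1.88, -2.62 and -3.38, and with the covariate for short structured RNAs it was -1.12 (edgeR adjusted p 0.195) and the UT difference 0.56 (edgeR adjusted p 0.309). The LPS comparison alone was no longer called without WT LPS replicate 3 or without KO LPS replicate 3. Gm25395, a scaRNA with C and D letters that lies in Atg16l1 as well, had an interaction of -2.10 (SE 0.215), while their shared host, an autophagy gene, had -0.14 (edgeR adjusted p 0.222). With the covariate the interaction of Gm25395 was -0.94 (edgeR adjusted p 0.381).

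Snora73b, the H/ACA RNA that acts in ribosomal RNA cutting, followed the same order. It was at 11.7, 13.8 and 12.5 CPM in WT UT and 30.2, 29.1 and 26.3 CPM in KO UT. With LPS it was at 32.3, 48.8 and 45.7 CPM in WT and 22.2, 11 and 11.2 CPM in KO, so the genotypes did not overlap in either state. The log2 fold change of KO over WT was 1.17 (SE 0.177, edgeR adjusted p 4.02e-05) in UT and -1.51 (SE 0.184, edgeR adjusted p 1.1e-05) with LPS, and the interaction was -2.69 (SE 0.255, edgeR adjusted p 5.92e-07). Each of these calls held without any 1 library. With the covariate the interaction was -1.33 (edgeR adjusted p 0.257) and the UT difference 0.30 (edgeR adjusted p 0.758). Its similar copy Gm26448, on another chromosome, was at 5.65 ± 0.953 CPM in WT UT, 12.7 ± 0.26 in KO UT, 20.2 ± 3.59 in WT LPS and 9.21 ± 2.88 in KO LPS (SD, n = 3), with an interaction of -2.29 (SE 0.24), or -0.88 with the covariate (edgeR adjusted p 0.509). The hosts Snhg3 and Rpsa each had an interaction of -0.46, with an edgeR adjusted p of 0.113 for Snhg3 and 0.00174 for Rpsa. Snora78, in Snhg9, had -1.92 (SE 0.56, edgeR adjusted p 0.0218) at a level of 0.5 ± 0.143 CPM in WT UT (SD, n = 3), and it lost the call in 5 of 12 fits that left out 1 library. With the covariate its interaction turned to 1.12 (edgeR adjusted p 0.82). Snora28 (-0.27) and Snora17 (-0.04) were not called.

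The most-counted Cajal body RNAs showed smaller differences. Scarna2, which has no host gene, was at 73.2, 68.1 and 66.6 CPM in WT UT and 132, 126 and 99.6 CPM in KO UT. With LPS it was at 128, 191 and 225 CPM in WT and 106, 119 and 110 CPM in KO. The interaction was -1.48 (SE 0.186, edgeR adjusted p 1.85e-05), and with the covariate for short structured RNAs it turned to 0.72. Gm22442 was at 45 ± 3.26 CPM in WT UT and 89.3 ± 5.48 in KO UT, and at 102 ± 21.6 in WT LPS and 83.9 ± 7.81 in KO LPS (SD, n = 3). Its genotypes overlapped with LPS and not without, and the interaction was -1.26 (SE 0.147), or 0.22 with the covariate. Gm22009 was at 177 ± 6.86, 236 ± 12.3, 439 ± 87.8 and 298 ± 11.6 CPM in the order WT UT, KO UT, WT LPS, then KO LPS (SD, n = 3), and its interaction of -0.98 (SE 0.13, edgeR adjusted p 3.87e-05) was below the fold limit. Scarna13 (-1.02) and the C/D RNA Snord17 (-1.07) were called, and each lost the call in 4 of 12 fits that left out 1 library and with RLE scaling, Scarna13 also with DESeq2 and with no filter. With the covariate the interaction turned to 1.63 for Scarna13 (edgeR adjusted p 0.00711) and to 1.71 for Snord17 (edgeR adjusted p 0.0381). Snord104 (-0.92), Snord89 (-0.48) and Snord71 (0.12) were not called.

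**Figure D4:**
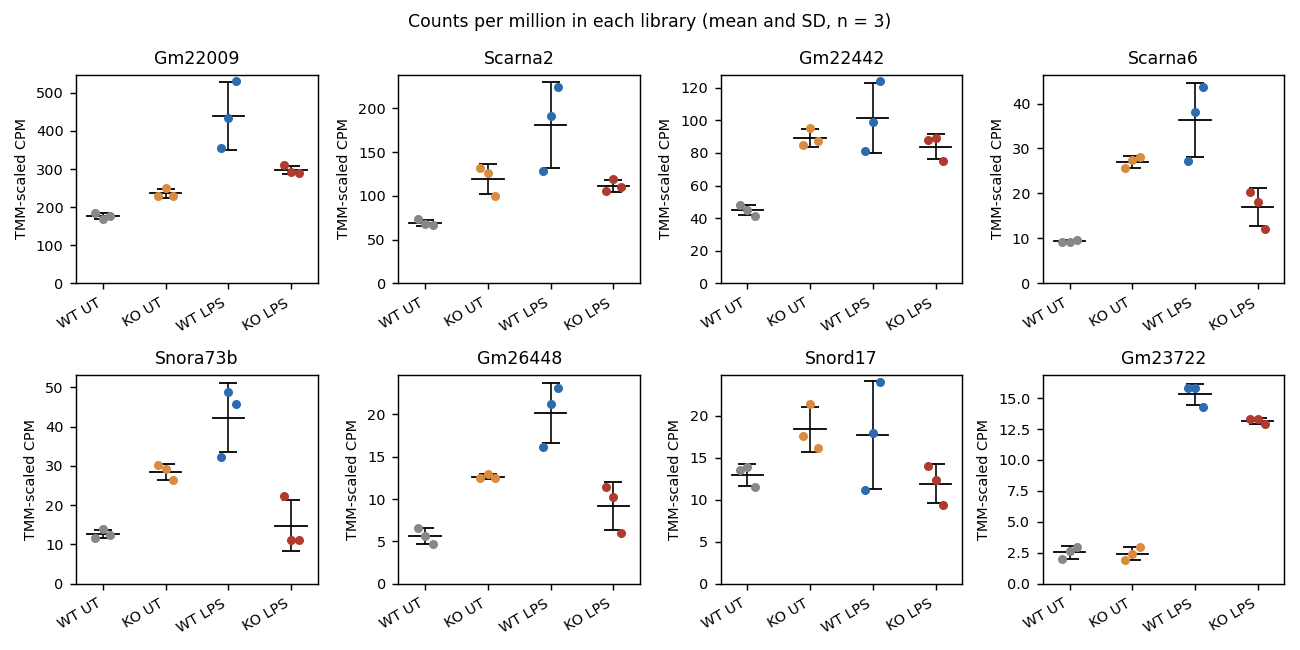
TMM-scaled CPM (y axis, from 0) of 8 named RNAs in the 4 groups (x axis), with points for libraries and bars for mean and SD (n = 3). Scarna6, Snora73b and Gm26448 are higher in KO than WT without LPS and lower with LPS, whereas Gm23722 is low in both UT groups and high in both LPS groups.

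**Figure D5:**
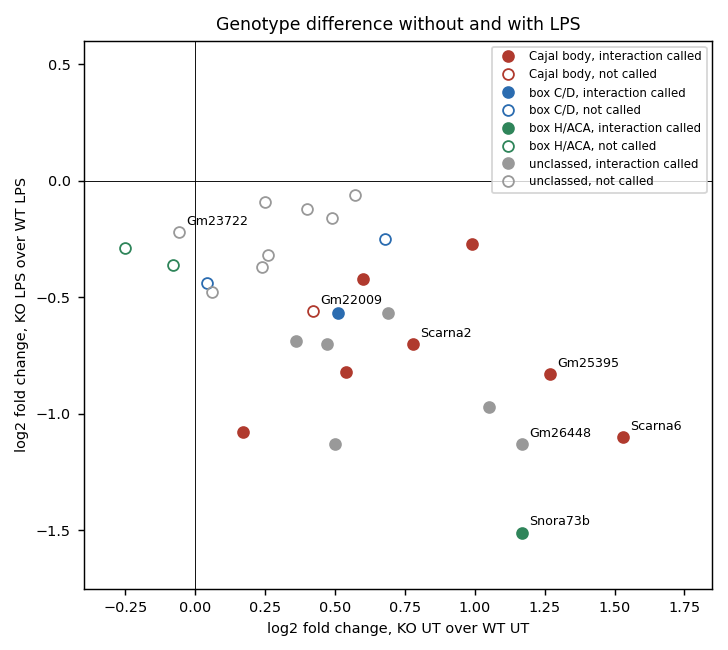
Log2 fold change of KO over WT with LPS (y axis) against that without LPS (x axis) for the 28 RNAs with a summed count of 500 or more, filled where the interaction was called. Scarna6 (1.53, -1.10) and Snora73b (1.17, -1.51) lie at the lower right and Gm23722 (-0.06, -0.22) near the origin.

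The genes for proteins that build and hold these RNAs were tested in the same fit. Of 27 tested genes for core proteins, assembly factors and processing enzymes, none was called by edgeR or DESeq2 for KO against WT in either state or in the interaction, and at an unadjusted p below 0.05 edgeR gave 6 as higher in KO without LPS and 4 with LPS, or 22.2% and 14.8%, against 33.5% and 28% of all genes in either direction. Since 1.8%, 1.25% and 2.12% of all genes were called there, a list of 27 genes with no call does not stand apart. Between WT LPS and WT UT, Dkc1, the pseudouridine synthase dyskerin, fell by 1.47 (SE 0.191, edgeR adjusted p 4.84e-07) and Parn, a deadenylase that trims RNA 3′ ends, fell by 1.01 (SE 0.117) on the log2 scale, the 2 calls of the list against 37% of all genes. Between KO LPS and KO UT, Shq1, a chaperone of dyskerin, fell by 1.19 (SE 0.181), the 1 call against 36.2%. Without regard to size, 6 of the 27 were higher and 9 lower in WT with LPS, 5 higher and 8 lower in KO with LPS, and 4 higher in KO UT than in WT UT. These 4 were Nop10 (0.86 on the log2 scale, edgeR adjusted p 1.94e-06), Nhp2 (0.64, edgeR adjusted p 1.23e-05), Snu13 (0.43, edgeR adjusted p 4.23e-05) and Fbl. Fbl, the C/D methyltransferase fibrillarin, was at 0.43 (SE 0.0901, edgeR adjusted p 0.00118). For all genes the shares with an adjusted p below 0.05 were 71.5%, 70.9% and 23.1% in these 3 comparisons. By the same measure 1 of the 27 was higher in KO LPS than in WT LPS, against 13.9% of all genes. In the interaction 1 was higher and 3 were lower, against 16.4% of all genes. The lower ones were Nop10 (-0.83, edgeR adjusted p 4.11e-04), Nhp2 (-0.63, edgeR adjusted p 0.00129) and Snu13 (-0.33, edgeR adjusted p 0.0185). The list medians were -0.13 and -0.12 for LPS in WT and KO.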

How the data were processed

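The authors prepared stranded total RNA libraries, mapped the read pairs with HISAT2 2.1.0 to GRCm38 and counted them per gene with featureCounts 2.0.0, as given by the methods and the submitters' processing notes. The deposited table holds raw counts per gene, with no filter or scaling. The annotation release, strand setting and treatment of multi-mapping reads are not given in the sources used here. The library kit is not a small RNA protocol, so levels of RNAs this short may be understated. Identifiers were matched to GENCODE M21 without version (48144 of 48526, and the other 382 held 0.122% of counts).

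Genes with a summed count of 60 or more (15975) were tested with edgeR 4.0.16 (limma 3.58.1, R 4.3.3) by the quasi-likelihood test after TMM scaling, in 1 model of group means over 12 libraries, with Benjamini-Hochberg adjustment over all genes. SE is the log2 fold change divided by the root of F. CPM are TMM-scaled. DESeq2 1.42.0, other scalings and filters, a replicate block, the compared groups alone, members without exon overlap and each library left out were alternatives. The tests were checked on simulated data. Labels pair libraries by batch number, but the 18 correlations of deviations ran from -0.0493 to 0.0272.

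The members and lists were chosen with earlier results of these data known. Named genes were the 4 highest by CPM of each class, those of the precursor rRNA list, the 3 largest called changes in each direction per comparison (mean CPM of 1 or more and, except in the interaction, no overlap of libraries), called protein genes and Tnf. Other names were chosen after their values were seen. Plots used matplotlib 3.10.9 (Python 3.11.15).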

Additional observations from a re-analysis of the deposited data

Results flagged for a closer look

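The genotype effect differed between LPS and UT, by the edgeR interaction test, for 11 of the named RNAs, each lower (log2 scale). For the Cajal body RNAs the interaction was -2.62 for Scarna6, -2.10 for Gm25395, -1.48 for Scarna2, -1.26 for Gm22442 and -1.02 for Scarna13. For the H/ACA RNAs it was -2.69 for Snora73b and -1.92 for Snora78, and for the C/D RNA Snord17 it was -1.07. For the unclassed RNAs it was -2.29 for Gm26448, -1.63 for Gm25117 and -1.26 for Gm25410. Gm25410 kept the call in 2 of 12 fits that left out 1 library, and with the batch number as a block its value was -1.28 (edgeR adjusted p 0.0684). Several of these genes were named because they lead the interaction. With the covariate for short structured RNAs the interaction turned above 0 for Scarna2, Gm22442, Scarna13, Snord17 and Snora78. Scarna13 and Snord17 alone were called in that fit. There the interaction was -1.28 for Gm25117 (edgeR adjusted p 0.558) and -0.68 for Gm25410 (edgeR adjusted p 0.858).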

How the results depend on the processing

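No named RNA that was called changed direction under another scaling, filter, tool or block, or without any 1 library. The count of calls stayed within 1.5 times under each other scaling, DESeq2 and filterByExpr. A floor of mean CPM 1 left 36 of the 143 genes and 23 (WT LPS over WT UT) and 7 (KO LPS over KO UT) calls, from fewer genes tested. Over the genes it left, medians of KO UT over WT UT went from 0.28 to 0.45 (all classes) and from 0.11 to 0.41 (C/D), of KO LPS over WT LPS from -0.29 to -0.50 (H/ACA), and of the interaction from -0.58 to -0.91 (all classes). With any fold change, 15 (KO LPS over WT LPS), 16 (KO UT over WT UT), 69 (WT LPS over WT UT), 35 (KO LPS over KO UT) and 25 (interaction) genes passed, or 10.5%, 11.2%, 48.3%, 24.5% and 17.5% against 13.9%, 23.1%, 71.5%, 70.9% and 16.4% of all genes. Leaving out 1 library gave 2 to 10 calls for KO LPS over WT LPS, 7 to 10 for KO UT over WT UT, 48 to 59 for WT LPS over WT UT, 20 to 25 for KO LPS over KO UT and 10 to 23 for the interaction. With the replicate block the interaction had 18 calls against 22, KO LPS over WT LPS 6 and KO UT over WT UT 8, and the pairing ended the interaction calls of Gm25410, Gm25788, Gm22154 and Gm22422 and those of Gm25788 (KO LPS over WT LPS), Gm22581 (KO UT over WT UT), Gm22858 (WT LPS over WT UT), and Gm22193 and Gm25612 (KO LPS over KO UT). Upper-quartile scaling moved the median over every tested gene by -0.16 in WT LPS over WT UT and by -0.17 in KO LPS over KO UT, and gave 51 and 19 calls of the 143 genes. The median of the 143 genes in KO LPS over KO UT, 0.31, was 0.14 with that scaling and 0.04 with the CPM floor, and 0.81 with the covariate below. The interaction call of Scarna13 was also lost with RLE scaling (-0.94), DESeq2 (-0.94) and no filter (-0.99), and those of Snord17 (-0.99) and Gm25410 (-1.18) with RLE scaling.

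The share of other short structured RNAs as a covariate, chosen after seeing the data, gave 1 call for KO LPS over WT LPS (Snora73b), 3 for KO UT over WT UT, 21 for WT LPS over WT UT, 18 for KO LPS over KO UT and 2 for the interaction. Signs reversed for KO UT over WT UT in Scarna13 (-1.09), Snord17 (-1.28) and Snora78 (-0.53), for KO LPS over KO UT in Scarna2 (1.2), Scarna13 (1.45) and Snord17 (1.01), and for the interaction in Scarna2 (0.72), Gm22442 (0.22), Scarna13 (1.63), Snord17 (1.71) and Snora78 (1.12). The cause was not tested. Depth limits the 115 genes with a summed count under 500, whose median SE of the interaction was 0.791 against 0.248 for the other 28.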

Other observations

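Taf1d, which codes for a subunit of the polymerase I factor SL1, held 7 of the 143 genes, more than any other host, followed by Rpl4 with 4. Ribosomal protein genes were hosts of several others, with 3 genes each in Rpl17, Rps12 and Rpsa.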
